A study of Mus musculus with 14 samples.

Results

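The transcripts of the mouse mitochondrial genome were followed across adipocytes of 3 fat depots on 2 diets. The members are all genes whose symbol starts with mt-, after Ensembl identifiers were matched to mouse symbols. There are 37 of them among 38553 genes, comprising 13 mRNAs, 2 rRNAs and 22 tRNAs, and each of these classes was treated on its own. Poly(A) RNA had been sequenced from the floating adipocyte layer of collagenase-digested fat of male C57BL/6 mice. From weaning at 3 weeks of age, the high-fat mice ate the D12492 diet of Research Diets for 16 weeks, and the normal-diet mice ate regular chow for the same time. Brown (interscapular), epididymal (visceral white) and inguinal (subcutaneous white) adipocytes were each taken from high-fat mice and from normal-diet mice, giving 6 groups. Each white group had 3 libraries, numbered 0 to 2, and each brown group had 1. Each library pooled fat from 3 to 5 mice, and brown fat was digested for 40 min against 20 min for white fat. Values are FPKM (fragments scaled to transcript length and to the size of the library), so levels of different genes are compared per length.

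Mitochondrial DNA is a small circle with a heavy and a light strand, each copied by the mitochondrial RNA polymerase into long transcripts. These are cut apart mostly at the tRNAs that lie between the other genes. The mRNAs encode core subunits of the proton-pumping respiratory complexes I, III and IV and of ATP synthase (complex V), while the nucleus encodes the remaining subunits, all of complex II and every factor that transcribes, cuts, stabilises and translates mitochondrial RNA. Brown adipocytes are packed with mitochondria and use them to make heat, and white adipocytes hold far fewer.

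The libraries differed in ways that touch these results. All 10 adipocyte markers were above 0 in every library. Between 15399 and 18029 genes lay above 0, and read depth is unknown. In inguinal libraries, the summed FPKM of 10 lymphocyte markers was 12.2, 15.5 and 7.01 on the high-fat diet (replicates 0, 1 and 2), against 575, 66.9 and 848 on the normal diet. In epididymal libraries, 10 macrophage markers summed to 1200 to 2139 FPKM on the high-fat diet and 456 to 940 FPKM on the normal diet. The corresponding sums of 10 endothelial markers were 55.6 to 109 FPKM on the high-fat diet and 601 to 654 FPKM on the normal diet. Erythroid markers summed to 273 to 419 FPKM in epididymal and 63.2 to 149.9 FPKM in inguinal high-fat libraries, against 1098 to 3488 FPKM in epididymal and 316 to 4851 FPKM in inguinal normal-diet libraries. Brown-adipocyte markers summed to 63.3 to 69.9 FPKM in epididymal and 112 to 313 FPKM in inguinal high-fat libraries, against 9.49 to 38.4 FPKM in epididymal and 60.3 to 193 FPKM in inguinal normal-diet libraries; limma called 2 and 3 of 8 tested higher in epididymal and inguinal adipocytes on the high-fat diet. Of 6 skeletal-muscle markers tested it called 1 and 3 higher, and of 10 fibroblast and progenitor markers 4 and 5 lower (0 and 1 higher), in the same order. Of all genes tested it called 12.2% higher and 7.35% lower in epididymal, and 9.3% higher and 10.2% lower in inguinal adipocytes. The part of the marked cell types in the mitochondrial values was not tested. Values of mitochondrial tRNAs split the libraries in another way, given with the tRNAs.

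The mitochondrial mRNAs were among the most abundant protein-coding transcripts by FPKM in all 14 libraries. mt-Atp8 (bases 7766 to 7969 of the mitochondrial chromosome, GRCm38.p6) ranked 1 of the mRNAs and mt-Atp6 (7927 to 8607), which overlaps it, ranked 2 in every library. Both encode subunits of ATP synthase. mt-Atp8 is 204 bases long and shares bases with mt-Atp6, so its rank by FPKM is uncertain. By FPKM times gene length it took 3.95% to 6.78% of the mRNA sum over the 14 libraries, against 12.6% to 24.2% for mt-Co1. Of the 20 protein-coding genes with the highest FPKM, 12 were mitochondrial in 13 libraries and 11 in inguinal normal-diet replicate 1. The 13th mRNA, mt-Nd4l (9877 to 10173), was listed at 0 in 12 libraries and at 4.13 and 3.63 FPKM in epididymal high-fat replicate 0 and inguinal normal-diet replicate 0. mt-Nd4 (10167 to 11544), which starts within it, lay between 5127 and 94082 FPKM over the same 14 libraries. Both are known to lie on one shared mRNA, and a value of 0 can be a failed estimate, so mt-Nd4l was given no level.

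All 12 other mRNAs were highest, among white libraries, in epididymal normal-diet replicate 2. Inguinal normal-diet replicate 1 was the lowest white library for 10 of them. Within a group, the highest library exceeded the lowest by 1.33 to 1.77 times in epididymal high-fat adipocytes, against 2.61 to 3.22 times in epididymal normal-diet adipocytes. The corresponding ratios were 1.35 to 2.26 in inguinal high-fat adipocytes, against 5.10 to 5.86 in inguinal normal-diet adipocytes. In both depots the spread was wider on the normal diet.

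**Figure D1:**
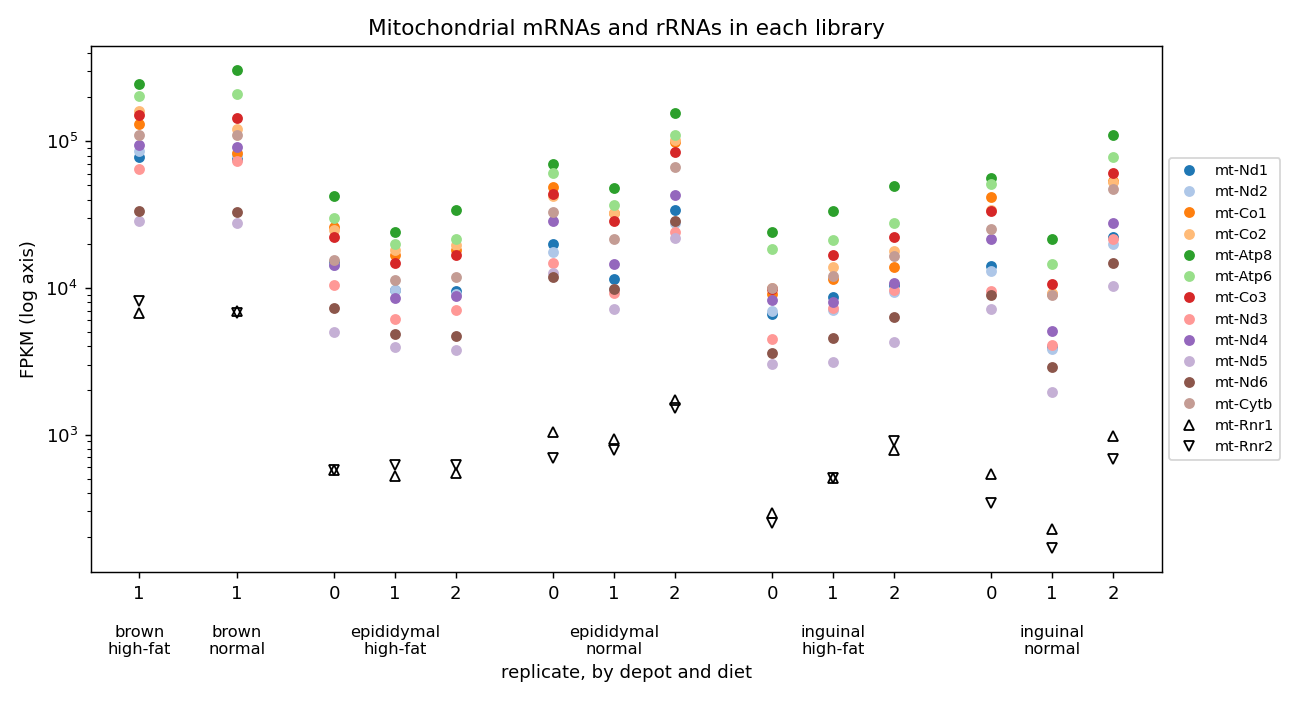
FPKM (log axis) of 12 mitochondrial mRNAs (circles) and both rRNAs (triangles) in each of the 14 libraries, grouped by depot and diet; mt-Nd4l is left out. The brown libraries lie highest (except mt-Co1 in the brown normal-diet one, under epididymal normal-diet replicate 2), inguinal normal-diet replicate 1 lies far below replicates 0 and 2, and the rRNAs lie far below the mRNAs throughout.

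In epididymal adipocytes the mean log2 level of each of 12 mitochondrial mRNAs was lower on the high-fat diet as the values were deposited, but no single gene passed the test. With quantile normalization, which sets the values of the top-ranked genes by their rank alone, 7 of the 12 stayed negative, 3 were positive and 2 were exactly 0. The log2 differences (high-fat minus normal, on log2(FPKM + 0.5)) ranged from -1.58 to -0.65 over the 12 tested mRNAs, with a median of -1.39, where the median over all 14959 genes tested was 0.07. limma called 0 of the 12 at an adjusted p under 0.05, and 2 of the 12 had an unadjusted p under 0.05. Of all genes tested, 19.5% were called in this comparison, 12.2% higher and 7.35% lower. For 9 of the 12 mRNAs the 3 high-fat libraries lay below all 3 normal-diet libraries, and 16.7% of all genes showed that pattern (25.7% the opposite one, 42.4% either). Leaving out any 1 library kept the median between -1.77 and -0.99 with 0 calls. In bulk RNA, fewer cells of a type and less RNA per cell cannot be told apart.

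Complex I, which feeds electrons from NADH into the chain, has 7 mitochondrially encoded subunits. mt-Nd5 (11742 to 13565), a proton-pumping subunit, had the smallest p of any mRNA: it measured 5034, 3931 and 3793 FPKM in epididymal high-fat libraries, against 12567, 7166 and 22074 FPKM in normal-diet libraries. The groups did not overlap, and the log2 difference was -1.58 ± 0.60 (SE, limma adjusted p = 0.0884). mt-Nd6 (13552 to 14070), the one mRNA of the light strand, measured 7345, 4819 and 4696 FPKM in high-fat libraries and 11952, 9907 and 28822 FPKM in normal-diet libraries. Its groups did not overlap either (log2 difference -1.45 ± 0.62, limma adjusted p = 0.127).

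mt-Nd4, another pump subunit, measured 14430, 8513 and 8862 FPKM in epididymal high-fat libraries, against 28769, 14634 and 43276 FPKM in normal-diet libraries. The lowest normal-diet library lay just above the highest high-fat one (log2 difference -1.35 ± 0.68, limma adjusted p = 0.201). The 3 mRNAs whose groups overlapped were all of complex I. mt-Nd1 (2751 to 3707) measured 14955, 9648 and 9488 FPKM in high-fat libraries and 19940, 11494 and 34080 FPKM in normal-diet libraries. mt-Nd2 (3914 to 4951) measured 14264, 9638 and 9110 FPKM in high-fat libraries and 17553, 9863 and 27771 FPKM in normal-diet libraries. mt-Nd3 (9459 to 9806) measured 10512, 6149 and 7125 FPKM in high-fat libraries and 14758, 9302 and 24259 FPKM in normal-diet libraries. In each of these, high-fat replicate 0 lay above normal-diet replicate 1. Their log2 differences were the smallest of the 12, at -0.84 ± 0.67, -0.65 ± 0.64 and -0.95 ± 0.63 (SE; limma adjusted p = 0.439, 0.546 and 0.346).

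mt-Cytb (14145 to 15288) encodes cytochrome b, the mitochondrially encoded subunit of complex III, which passes electrons to cytochrome c. It measured 15430, 11294 and 11908 FPKM in epididymal high-fat libraries, against 33056, 21716 and 66524 FPKM in normal-diet libraries. All high-fat values lay below all normal-diet values (log2 difference -1.51 ± 0.70, limma adjusted p = 0.164).

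Complex IV, cytochrome c oxidase, reduces oxygen. mt-Co1 (5328 to 6872), its catalytic core, measured 26045, 16714 and 18267 FPKM in epididymal high-fat libraries, against 48850, 32553 and 99167 FPKM in normal-diet libraries. mt-Co2 (7013 to 7696), which takes electrons from cytochrome c, measured 24837, 18069 and 19713 FPKM in high-fat libraries and 42179, 32384 and 102156 FPKM in normal-diet libraries. mt-Co3 (8607 to 9390) measured 22427, 14756 and 16830 FPKM in high-fat libraries and 43997, 28699 and 84462 FPKM in normal-diet libraries. None of the 3 overlapped between diets, and their log2 differences were -1.44, -1.33 and -1.42 (limma adjusted p = 0.232, 0.269 and 0.235).

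For complex V, mt-Atp8 measured 42600, 24004 and 33792 FPKM in epididymal high-fat libraries, against 70021, 48169 and 155045 FPKM in normal-diet libraries. mt-Atp6, whose product forms the proton channel with the c-ring, measured 29960, 20013 and 21447 FPKM in high-fat libraries and 60392, 36981 and 110081 FPKM in normal-diet libraries. Neither overlapped between diets, with log2 differences of -1.31 ± 0.89 and -1.42 ± 0.80 (SE; limma adjusted p = 0.355 and 0.256). The macrophage and endothelial sums given above moved with the diet in these libraries, and limma called 5 of 10 macrophage markers higher and 10 of 10 endothelial and 5 of 5 tested erythroid markers lower on the high-fat diet. Of all genes tested, 12.2% were called higher and 7.35% lower in this comparison. The part of these cell types in the mitochondrial values was not tested.

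In inguinal adipocytes all 12 tested mRNAs again had negative log2 differences, from -1.27 to -0.35 with a median of -0.66, where the median over all genes was -0.01. limma called 0 of 12, and 0 of 12 had an unadjusted p under 0.05; 19.5% of all genes were called in this comparison, 9.3% higher and 10.2% lower. The groups overlapped for all 12 mRNAs, while 33.1% of all genes did not overlap between diets in either direction (15.8% higher, 17.3% lower). The largest difference was that of mt-Co1, which measured 9099, 11511 and 13887 FPKM in inguinal high-fat libraries, against 41752, 9147 and 53625 FPKM in normal-diet libraries (log2 difference -1.27 ± 0.77, limma adjusted p = 0.269). Normal-diet replicates 0 and 2 lay well above the high-fat libraries, and replicate 1 lay among them.

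The other inguinal mRNAs had the same shape. mt-Cytb measured 10028, 12065 and 16438 FPKM in inguinal high-fat libraries and 25236, 8942 and 47010 FPKM in normal-diet libraries. mt-Atp6 measured 18432, 21084 and 27835 FPKM in high-fat libraries and 50755, 14616 and 78041 FPKM in normal-diet libraries. mt-Atp8 measured 24209, 33501 and 49218 FPKM in high-fat libraries and 55889, 21720 and 111144 FPKM in normal-diet libraries. In all 3, normal-diet replicate 1 was the lowest of the 6 libraries.

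For complex IV, mt-Co2 measured 9995, 13865 and 17803 FPKM in inguinal high-fat libraries, against 34133, 9301 and 52764 FPKM in normal-diet libraries. mt-Co3 measured 9828, 16784 and 22187 FPKM in high-fat libraries, against 33616, 10637 and 60456 FPKM in normal-diet libraries. In both, normal-diet replicates 0 and 2 were the highest libraries and replicate 1 lay near the lowest, with log2 differences of -0.92 and -0.85 (limma adjusted p = 0.429 and 0.465).

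For complex I, mt-Nd1 measured 6645, 8699 and 10516 FPKM in inguinal high-fat libraries, against 14203, 3959 and 22274 FPKM in normal-diet libraries. mt-Nd2 measured 6926, 7053 and 9416 FPKM in high-fat libraries, against 13078, 3813 and 19952 FPKM in normal-diet libraries. They had the smallest inguinal log2 differences, -0.35 and -0.37 (limma adjusted p = 0.752 and 0.723). mt-Nd3 measured 4467, 7273 and 9685 FPKM in high-fat libraries, against 9531, 4054 and 21573 FPKM in normal-diet libraries. mt-Nd4 measured 8258, 7989 and 10776 FPKM in high-fat libraries, against 21556, 5127 and 27526 FPKM in normal-diet libraries. mt-Nd5 measured 3021, 3123 and 4286 FPKM in high-fat libraries and 7138, 1944 and 10242 FPKM in normal-diet libraries, and mt-Nd6 measured 3578, 4529 and 6359 FPKM in high-fat libraries and 8896, 2901 and 14781 FPKM in normal-diet libraries. In these 4 also, normal-diet replicate 1 lay below all others.

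The inguinal result turned on this library. Without inguinal normal-diet replicate 1 the median log2 difference of the 12 mRNAs was -1.38 and limma called 4 of them lower, mt-Co1, mt-Co2, mt-Nd4 and mt-Nd5 (smallest adjusted p = 0.0101), while it called 31.6% of all genes in either direction, against 19.5% with all libraries. Against replicate 1 alone (without normal-diet replicates 0 and 2, a setting chosen after the data were seen), the median was 0.67 and all 12 differences were positive. That arm is then 1 library, whose spread the fit assumes to be that of the other groups, so no test is read from it. Without replicate 2 alone the median was -0.18, and without replicate 0 alone it was -0.50, with 0 calls each. Replicate 1 also had the highest adipocyte sum of its group, 36570 FPKM against 16409 and 21220 FPKM in replicates 0 and 2. Fibroblast and progenitor markers (6846 against 2767 and 2386 FPKM) and macrophage markers (546 against 194 and 207 FPKM) were highest there too. Its endothelial sum (419 against 513 and 797 FPKM) and erythroid sum (316 against 1072 and 4851 FPKM) were the lowest. So was its lymphocyte sum, 66.9 FPKM against 575 and 848 FPKM, and limma called 10 of 10 lymphocyte markers lower on the high-fat diet. Of 5 erythroid markers tested, limma called 4 lower, and of all genes tested it called 10.2% lower. The part of these cells in the mitochondrial values was not tested.

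**Figure D2:**
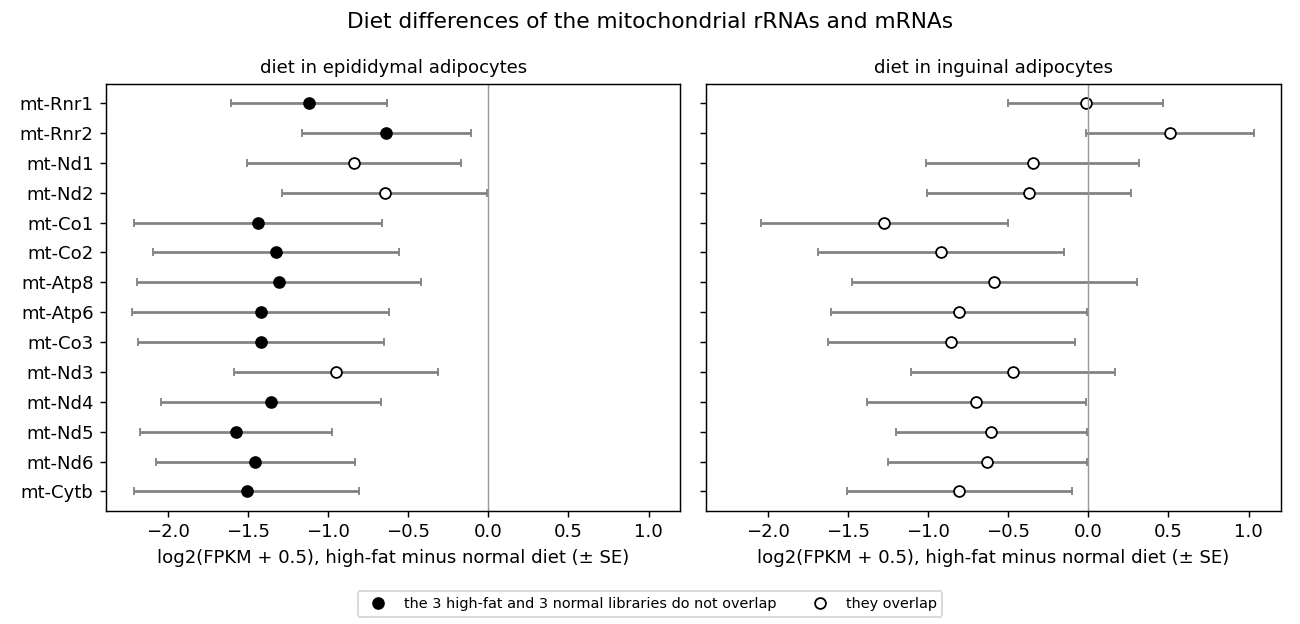
Difference on log2(FPKM + 0.5), high-fat minus normal diet, with its SE from limma, for both rRNAs and 12 mRNAs in genome order, in epididymal and inguinal adipocytes. Filled points mark genes whose 3 high-fat and 3 normal-diet libraries do not overlap. In epididymal adipocytes 9 mRNAs and both rRNAs do not overlap, in inguinal adipocytes none; mt-Nd1 and mt-Nd2 lie nearest to 0 of the mRNAs in both. Values are scaled as deposited; with quantile normalization 3 of the 12 epididymal mRNA differences were positive and 2 were 0.

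The diet effect was not shown to differ between depots. The interaction (epididymal diet difference minus inguinal diet difference) had a median of -0.59 over the 12 mRNAs, and limma called 0 of 12, with 0 at an unadjusted p under 0.05, where 7.22% of all genes were called (4.8% higher, 2.42% lower). Its direction was not stable. Without inguinal normal-diet replicate 1 the median was 0.11, and 8 of the 12 had the opposite sign. With array weights the median was -0.03, and 6 of the 12 had the opposite sign. With quantile normalization all 12 had the opposite sign, but the mRNAs hold the top ranks there, and the tRNAs described below take some of those ranks in 5 inguinal libraries and in no epididymal one, so that setting was read no further between depots. Between depots on the high-fat diet (epididymal minus inguinal) the median log2 difference was 0.22, limma called 0 of 12 with 0 at an unadjusted p under 0.05, and 10.6% of all genes were called (7.08% higher, 3.53% lower). Scaling to nuclear protein-coding genes turned 6 of these 12 signs and moved the median of all genes to -0.15. mt-Co1 (16714 to 26045 FPKM in epididymal and 9099 to 13887 FPKM in inguinal libraries) and mt-Co2 (18069 to 24837 FPKM in epididymal and 9995 to 17803 FPKM in inguinal libraries) did not overlap, a pattern that 23.2% of all genes showed in this direction and 38.4% in either. On the normal diet the median was 0.81, limma called 0 of 12 with 0 at an unadjusted p under 0.05, and 6.51% of all genes were called (2.36% higher, 4.15% lower). Without inguinal normal-diet replicate 1 that median was 0.09, and against replicate 1 alone it was 2.24, a value of 1 inguinal library with no test read from it.

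The sum of the 13 mRNAs puts these levels on one scale. It made up 36.8%, 26.8% and 27.7% of the FPKM of protein-coding genes in epididymal high-fat libraries, against 58.5%, 40.1% and 66.5% in epididymal normal-diet libraries. In inguinal libraries it made up 26.7%, 28.9% and 35.0% on the high-fat diet, against 51.9%, 20.5% and 60.5% on the normal diet. All 6 high-fat white libraries thus lay at or under 36.8%, and 5 of the 6 normal-diet white libraries lay at or above 40.1%. This order rests on protein-coding genes as the base. Of the FPKM of all features, tRNAs included, the mRNAs made up 2.73% to 6.17% in epididymal high-fat and 4.14% to 15.6% in epididymal normal-diet libraries, and 4.32% to 6.59% in inguinal high-fat and 4.19% to 24.8% in inguinal normal-diet libraries. Another base left out features known to be shorter than 200 bases and kept those of unknown length. On it the mRNAs made up 2.73% to 6.17% in epididymal high-fat and 4.14% to 16.1% in epididymal normal-diet libraries. Inguinal shares on that base were 9.20% to 16.1% on the high-fat diet and 12.1% to 36.0% on the normal diet. The diets overlapped in both depots on both of these bases. The nuclear protein-coding sum varied less, from 286961 to 431218 FPKM over the 12 white libraries.

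The make-up of the mitochondrial mRNA pool differed with diet in a way that does not depend on how a library was scaled. Here each mRNA is given as a percent of the 13-mRNA FPKM sum of its library, as a description without a test; shares of a closed sum are not independent. mt-Nd1 and mt-Nd2, which lie next to each other downstream of the rRNAs, took a larger share on the high-fat diet in all white libraries. mt-Nd1 took 6.56%, 6.54% and 5.75% in epididymal high-fat libraries, against 4.94%, 4.37% and 4.27% in epididymal normal-diet libraries. In inguinal libraries it took 5.80%, 5.90% and 5.30% on the high-fat diet, against 4.50%, 4.12% and 4.29% on the normal diet. The lowest of the 6 high-fat values lay above the highest of the 6 normal-diet values.

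mt-Nd2 showed the same order. It took 6.26%, 6.53% and 5.52% in epididymal high-fat libraries and 4.34%, 3.75% and 3.48% in epididymal normal-diet libraries. Its inguinal shares were 6.05%, 4.78% and 4.75% on the high-fat diet and 4.14%, 3.97% and 3.84% on the normal diet. Again the 6 high-fat and 6 normal-diet white libraries did not overlap, inguinal normal-diet replicate 1 included.

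mt-Co1 took a smaller share on the high-fat diet within each white depot. It took 11.4%, 11.3% and 11.1% in epididymal high-fat libraries, against 12.1%, 12.4% and 12.4% in epididymal normal-diet libraries. Inguinal shares were 7.95%, 7.81% and 6.999% on the high-fat diet, against 13.2%, 9.51% and 10.3% on the normal diet. The ratio of mt-Nd1 to mt-Co1, chosen after these values were seen, lay between 0.519 and 0.757 in the 6 high-fat white libraries and between 0.340 and 0.433 in the 6 normal-diet white libraries. In brown adipocytes the same ratio ran the other way, 0.604 on the high-fat diet and 0.906 on the normal diet (1 library each).

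Over all 13 mRNAs, 3 had a higher and 5 a lower share without overlap between diets in epididymal adipocytes. The 3 were mt-Nd1, mt-Nd2 and mt-Nd3 (4.37% ± 0.23 on the high-fat diet and 3.41% ± 0.33 on the normal diet; SD, n = 3 each). The 5 were mt-Co1, mt-Co3, mt-Atp6, mt-Nd5 and mt-Cytb (7.21% ± 0.44 on the high-fat diet and 8.26% ± 0.079 on the normal diet; SD, n = 3 each). In inguinal adipocytes 3 were higher (mt-Nd1, mt-Nd2 and mt-Nd6) and 2 lower (mt-Co1 and mt-Co2) without overlap. Counts of this kind have no background share here, because a share within this pool exists for these 13 genes alone.

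Between depots the pool differed mainly on the high-fat diet. mt-Co1 took 11.3% ± 0.19 in epididymal and 7.58% ± 0.51 in inguinal high-fat libraries, and mt-Co2 took 11.7% ± 0.71 in epididymal and 9.03% ± 0.34 in inguinal high-fat libraries (SD, n = 3 each). mt-Atp8 (18.5% ± 2.1 in epididymal and 22.9% ± 1.8 in inguinal libraries), mt-Atp6 and mt-Cytb took smaller epididymal shares without overlap. On the normal diet, mt-Nd5 took a larger and mt-Atp6 a smaller epididymal share without overlap, and the other 11 mRNAs overlapped.

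The shares of 3 mRNAs were ordered by replicate number. mt-Nd4 took 6.33% to 7.21% in the 4 white libraries numbered 0, and 5.30% to 5.77% in the 8 white libraries numbered 1 or 2. It was highest in replicate 0 of all 4 white groups, and no other mRNA of the 12 was. mt-Nd2 and mt-Atp6 were lowest in replicate 2 of all 4. The labels do not say what the number marks, and these patterns were found after the data were seen.

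**Figure D3:**
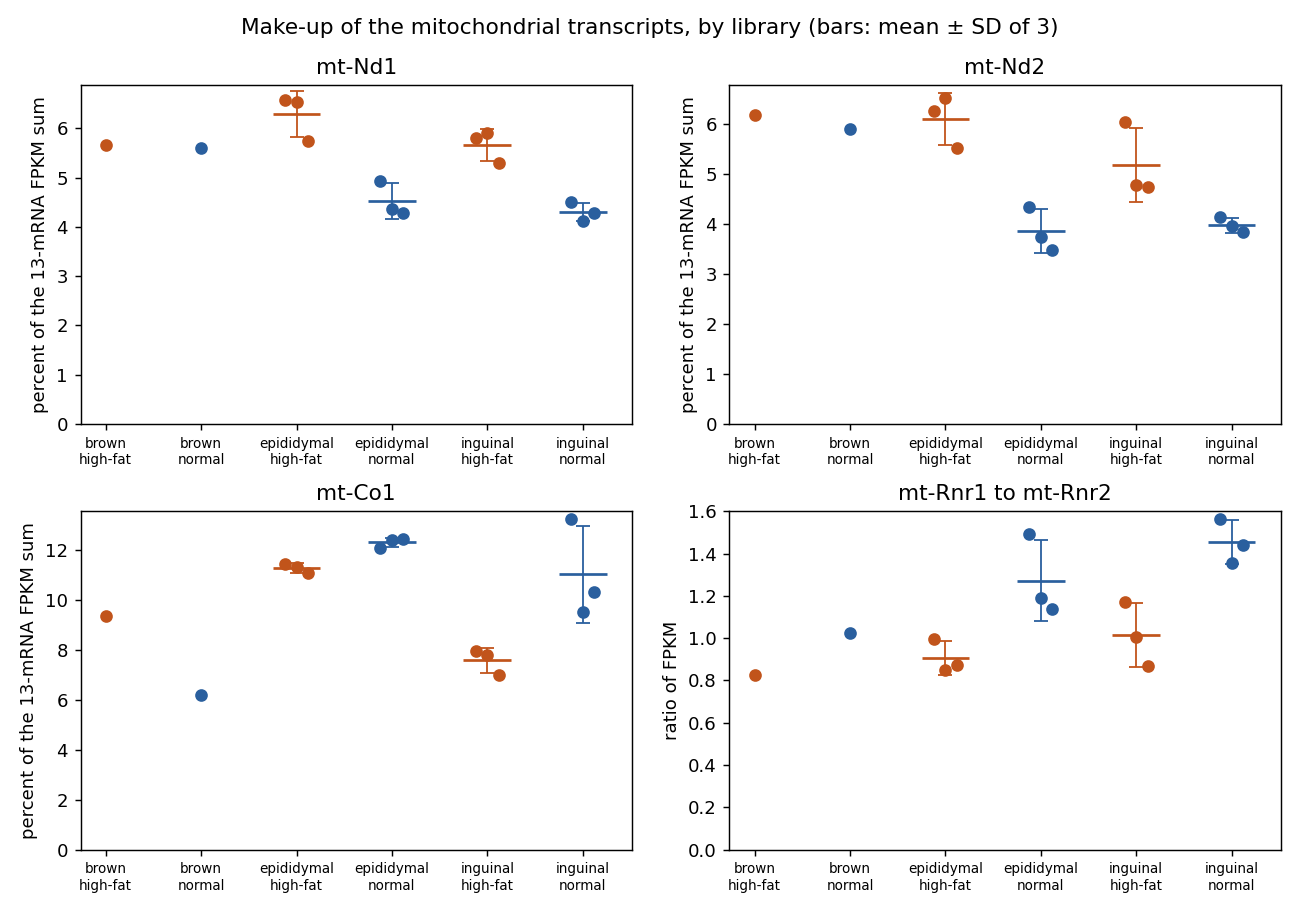
Shares of mt-Nd1, mt-Nd2 and mt-Co1 in the 13-mRNA FPKM sum (percent) and the ratio of mt-Rnr1 to mt-Rnr2, one point per library, with mean and SD of 3 for white groups. The high-fat points of mt-Nd1 and mt-Nd2 lie above all normal-diet points in white adipocytes, and those of mt-Co1 and of the rRNA ratio lie below the normal-diet points of the same white depot.

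The 2 rRNAs form the RNA core of the mitochondrial ribosome. They summed to 0.278% to 1.07% of the mRNA FPKM over the 14 libraries, and the RNA was selected for poly(A). mt-Rnr1 (70 to 1024), the small-subunit rRNA, measured 570, 526 and 545 FPKM in epididymal high-fat libraries, against 1037, 936 and 1725 FPKM in normal-diet libraries (log2 difference -1.12 ± 0.48, limma adjusted p = 0.133). mt-Rnr2 (1094 to 2675), the large-subunit rRNA, measured 572, 620 and 624 FPKM in epididymal high-fat libraries, against 696, 788 and 1518 FPKM in normal-diet libraries (log2 difference -0.64 ± 0.53, limma adjusted p = 0.459). Neither overlapped between epididymal diets, where 16.7% of all genes lay lower without overlap and 42.4% did not overlap in either direction. mt-Rnr1 was called lower with only the epididymal groups in the fit (limma adjusted p = 0.0255), with quantile normalization (0.0102) and with array weights (0.028). Those settings called 24.1%, 19.3% and 34.2% of all genes, in the same order.

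In inguinal libraries mt-Rnr1 measured 291, 509 and 784 FPKM on the high-fat diet and 535, 228 and 982 FPKM on the normal diet. mt-Rnr2 measured 248, 506 and 903 FPKM on the high-fat diet and 342, 168 and 682 FPKM on the normal diet. Both overlapped, with log2 differences of -0.02 and 0.51 (limma adjusted p = 0.987 and 0.528). limma called 0 of 2 rRNAs in any of the 5 comparisons, and mt-Rnr1 in the epididymal diet comparison and both rRNAs between depots on the normal diet had an unadjusted p under 0.05. In that last comparison mt-Rnr2 did not overlap, with 696 to 1518 FPKM in epididymal and 168 to 682 FPKM in inguinal libraries, and 8.82% of all genes did not overlap in this direction there (19.1% in either).

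The ratio of the 2 rRNAs ordered the diets within each white depot, which was seen only after the values were computed. mt-Rnr1 to mt-Rnr2 was 0.996, 0.848 and 0.873 in epididymal high-fat libraries, against 1.49, 1.19 and 1.14 in normal-diet libraries. The inguinal ratio was 1.17, 1.01 and 0.868 on the high-fat diet, against 1.57, 1.36 and 1.44 on the normal diet. It was 0.824 in the brown high-fat and 1.02 in the brown normal-diet library. No depot overlapped, and the ratio had no test.

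Each of complexes I, III, IV and V joins subunits of both genomes, so 1 mitochondrial mRNA was set against 1 nuclear mRNA of the same complex. The ratio cancels the scaling of a library. Diet labels were permuted within depots in an exact two-sided test over 400 arrangements, whose smallest p is 0.005, with Benjamini-Hochberg adjustment over 8 tests (4 ratios, diet and depot). The mitochondrial mRNA was lower relative to its nuclear partner on the high-fat diet in all 4 complexes, and none passed after adjustment.

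For complex III, mt-Cytb to Uqcrc1 (a core subunit) was 131, 105 and 94.6 in epididymal high-fat libraries, against 488, 203 and 597 in normal-diet libraries. The inguinal ratio was 82.6, 82.98 and 111 on the high-fat diet, against 350, 82.1 and 567 on the normal diet. The epididymal groups did not overlap, and inguinal normal-diet replicate 1 lay just below the high-fat libraries. The mean log2 difference of the 2 depots was -1.66 (exact permutation p = 0.02, adjusted p = 0.0933).

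For complex IV, mt-Co1 to Cox4i1 was 52.9, 34.2 and 33.1 in epididymal high-fat libraries, against 137, 57.4 and 180 in normal-diet libraries. Inguinal libraries had ratios of 20.8, 19.2 and 22.7 on the high-fat diet, against 124, 17.2 and 111 on the normal diet. The mean log2 difference was -1.54 (exact permutation p = 0.035, adjusted p = 0.0933). For complex V, mt-Atp6 to Atp5a1 (now Atp5f1a, the catalytic-head alpha subunit) was 96.4, 66.4 and 62.0 in epididymal high-fat libraries, against 297, 131 and 358 in normal-diet libraries. For inguinal libraries the ratio was 61.6, 57.6 and 73.6 on the high-fat diet, against 266, 51.4 and 388 on the normal diet. The mean log2 difference was -1.58 (exact permutation p = 0.025, adjusted p = 0.0933).

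For complex I, mt-Nd1 to Ndufs1 was 355, 208 and 208 in epididymal high-fat libraries, against 595, 280 and 803 in normal-diet libraries, and here the epididymal groups overlapped. Ratios of inguinal libraries were 125, 158 and 166 on the high-fat diet, against 418, 79.1 and 671 on the normal diet. The mean log2 difference was -0.98 (exact permutation p = 0.085, adjusted p = 0.17), the smallest of the 4. Without inguinal normal-diet replicate 1 all 4 ratios passed, with mean log2 differences from -2.06 to -1.44. The exact permutation test then had fewer arrangements and gave adjusted p of 0.0133 to 0.02. That library lay below all high-fat white libraries in each ratio, so leaving it out moves the diets apart, and no support was read from it.

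With all subunits above 0 in every library in place of 1 pair (mt-Nd4l and the nuclear Cox7a1 of complex IV were at 0 in some), the mean log2 of the mitochondrial mRNAs minus that of the nuclear ones was lower on the high-fat diet in each complex. In epididymal adipocytes the differences were -1.09 for complex I, -1.52 for complex III, -1.52 for complex IV and -1.38 for complex V. In inguinal adipocytes they were -0.78 for complex I, -1.18 for complex III, -1.26 for complex IV and -0.83 for complex V. These are descriptions without a test. Between depots (epididymal minus inguinal within diet) the 4 ratios (diet-averaged) had mean log2 differences of 0.33 to 0.89, with exact permutation adjusted p of 0.176 to 0.535.

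mt-Nd6 and mt-Nd5 lie end to end on opposite strands, and their ratio sets a light-strand gene against a heavy-strand one. It was 1.46, 1.23 and 1.24 in epididymal high-fat libraries, against 0.951, 1.38 and 1.31 in normal-diet libraries. Inguinal values were 1.18, 1.45 and 1.48 on the high-fat diet, against 1.25, 1.49 and 1.44 on the normal diet. All groups overlapped, and the exact permutation test gave p = 0.705 for diet (mean log2 difference 0.05, adjusted p = 0.705) and p = 0.25 for depot (-0.14, adjusted p = 0.5). The 2 genes overlap by a few bases, and no source used here says that counting kept strands apart. Reads of either strand may thus be counted for both genes, and the test cannot decide on a difference between strands.

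**Figure D4:**
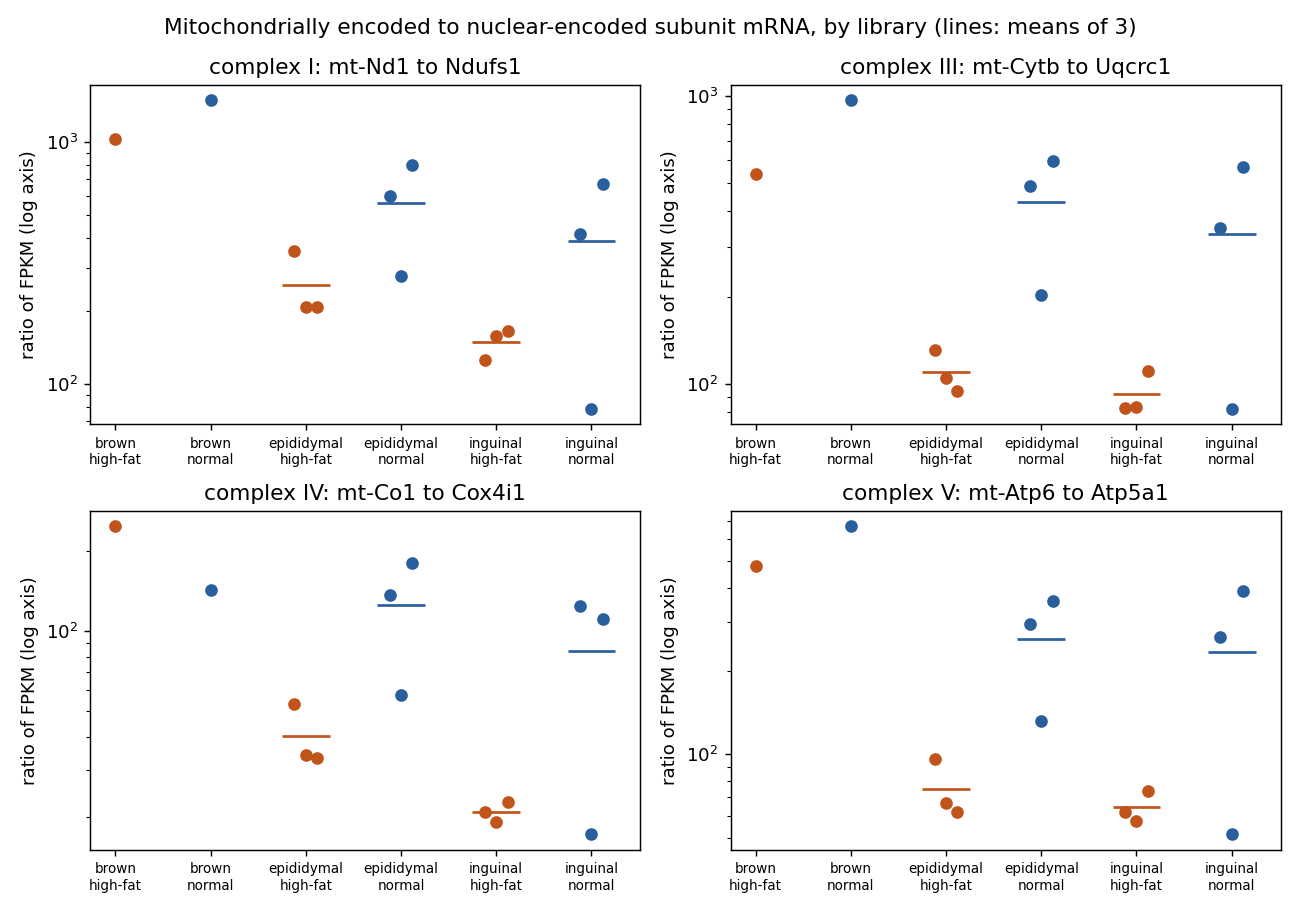
Ratio of FPKM (log axis) of a mitochondrially encoded to a nuclear-encoded subunit mRNA in 4 complexes, one point per library, lines at the means of 3. Inguinal normal-diet replicate 1 lies below all 6 high-fat white libraries in each panel, the other 5 normal-diet white libraries lie above the high-fat ones in all panels but that of mt-Nd1 (280 in epididymal normal-diet replicate 1, under 355 in high-fat replicate 0), and for mt-Co1 to Cox4i1 the brown high-fat library lies above the brown normal-diet one, while the other 3 ratios have the opposite order.

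Few of the nuclear partners were called. Of 77 tested nuclear subunits of complexes I to V, limma called 0 in epididymal adipocytes (median log2 difference -0.02, with 2 at an unadjusted p under 0.05), beside 12.2% of all genes called higher and 7.35% lower. In inguinal adipocytes it called 5 higher and 1 lower (median 0.31), beside 9.3% of all genes called higher and 10.2% lower. The 5 were Ndufs1 and Ndufs4 of complex I, Sdhd of complex II, Uqcrq of complex III and Atp5g3, a gene for the ATP synthase c subunit; the lower one was Atp5g2, another gene for the same c subunit (log2 difference -0.83 ± 0.22, limma adjusted p = 0.0222).

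Ndufs1, an iron-sulfur subunit of complex I, measured 53.0, 55.2 and 63.3 FPKM in inguinal high-fat libraries, from lowest to highest, against 33.2, 34.004 and 50.1 FPKM in normal-diet libraries. The groups did not overlap, and it rose by 0.57 ± 0.18 on the log2 scale (limma adjusted p = 0.049). This call was lost in 9 of 17 alternatives, among them the loss of any inguinal library other than normal-diet replicate 1. The calls of Ndufs4, Sdhd, Uqcrq and Atp5g3 were lost in 7 or 8 of the 17. In epididymal libraries it measured 42.1 to 46.4 FPKM on the high-fat diet and 33.5 to 42.5 FPKM on the normal diet, and was not called. Uqcrc1 had inguinal values of 121 to 149 FPKM on the high-fat diet and 72.2 to 109 FPKM on the normal diet (limma adjusted p = 0.0511), and Atp5a1 had 299 to 378 FPKM on the high-fat diet and 191 to 285 FPKM on the normal diet (limma adjusted p = 0.0573). Both were called higher under quantile, TMM-type and nuclear scaling. Cox4i1 overlapped between diets in both depots, with 438 to 613 FPKM in high-fat and 338 to 567 FPKM in normal-diet white libraries.

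Of 21 factors that copy mitochondrial DNA into RNA or replicate it, limma called 0 higher and 1 lower in epididymal adipocytes, and 2 higher and 0 lower in inguinal adipocytes. Of all genes tested, it called 12.2% higher and 7.35% lower in epididymal adipocytes, and 9.3% higher and 10.2% lower in inguinal adipocytes, which is the background also for the translation factors and synthetases below. Tfam, which packages mitochondrial DNA and opens its promoters, measured 12.1, 12.2 and 14.1 FPKM in epididymal high-fat libraries, from lowest to highest, against 11.2, 13.7 and 18.4 FPKM in normal-diet libraries (limma adjusted p = 0.732). In inguinal libraries it measured 11.4, 13.2 and 17.5 FPKM on the high-fat diet, against 15.5, 19.7 and 22.5 FPKM on the normal diet (limma adjusted p = 0.184). Both depots overlapped.

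Polrmt, the mitochondrial RNA polymerase, measured 7.28 to 9.49 FPKM in epididymal high-fat and 5.50 to 9.44 FPKM in epididymal normal-diet libraries (limma adjusted p = 0.6), and 8.43 to 13.3 FPKM in inguinal high-fat and 11.4 to 28.0 FPKM in inguinal normal-diet libraries (limma adjusted p = 0.216). The called genes were Rrm2b, a ribonucleotide reductase subunit that supplies nucleotides for mitochondrial DNA, and the inguinal genes Tefm, a transcription elongation factor, and Mterf2, of the transcription termination factor family. Rrm2b measured 4.87, 5.80 and 6.00 FPKM in epididymal high-fat libraries, against 8.98, 9.36 and 9.39 FPKM in normal-diet libraries. The groups lay well apart, and it fell by 0.69 on the log2 scale (SE 0.17, limma adjusted p = 0.0144); leaving out high-fat replicate 2 ended the call. Tefm measured 7.92 to 9.11 FPKM in inguinal high-fat and 3.04 to 6.21 FPKM in normal-diet libraries (log2 difference 0.89 ± 0.23, limma adjusted p = 0.0178). Leaving out replicate 2 of either diet ended the call, as did fitting only the groups compared. Mterf2 had a log2 difference of 0.74 (limma adjusted p = 0.0315), which was lost in 7 of 17 alternatives.

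Among 33 factors that cut, modify, stabilise or degrade mitochondrial RNA, limma called 2 higher and 0 lower in epididymal adipocytes, and 1 higher and 0 lower in inguinal adipocytes, where the background calls were 12.2% and 9.3% higher. Rexo2, an exonuclease that clears short RNA fragments from mitochondria, was called in both. It measured 74.2, 82.96 and 89.9 FPKM in epididymal high-fat libraries, against 35.9, 43.4 and 55.0 FPKM in normal-diet libraries (log2 difference 0.89 ± 0.25, limma adjusted p = 0.024). Inguinal values were 57.9, 68.6 and 77.9 FPKM on the high-fat diet, against 23.5, 41.8 and 44.2 FPKM on the normal diet (log2 difference 0.93 ± 0.25, limma adjusted p = 0.0206). Neither depot overlapped. Leaving out any 1 epididymal library other than normal-diet replicate 1 ended the epididymal call, and 3 of the 6 inguinal libraries (high-fat 1 and 2, normal-diet 0) did the same for the inguinal call. The inguinal call of Rexo2 was also lost with only the groups compared, a setting that called 4.77% of all genes.

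The second epididymal call was Fastk, whose family stabilises mitochondrial RNA (29.8 to 33.0 FPKM on the high-fat diet and 18.4 to 26.3 FPKM on the normal diet, limma adjusted p = 0.035), a call lost in 7 of 16 alternatives. Lrpprc, which holds mitochondrial mRNAs in a stable, polyadenylated state, was called in neither depot. It measured 11.96 to 14.4 FPKM in epididymal high-fat and 7.78 to 12.9 FPKM in epididymal normal-diet libraries, and 11.8 to 14.6 FPKM in inguinal high-fat and 9.41 to 17.1 FPKM in inguinal normal-diet libraries.

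Of 11 regulators of mitochondrial biogenesis, limma called 2 higher and 0 lower in epididymal adipocytes, and 1 higher and 1 lower in inguinal adipocytes, beside 12.2% higher and 7.35% lower (epididymal) and 9.3% higher and 10.2% lower (inguinal) over all genes. Esrra, a nuclear receptor that drives respiratory genes, measured 20.7, 24.8 and 26.3 FPKM in epididymal high-fat libraries, against 8.58, 12.7 and 17.2 FPKM in normal-diet libraries. It rose by 0.92 ± 0.23 on the log2 scale without overlap (limma adjusted p = 0.0159), which no longer held when high-fat replicate 0 or 2 or normal-diet replicate 0 was left out. The other call in this direction was Esrrg, a related receptor named after its values were seen. It measured 0.767 to 1.26 FPKM in epididymal high-fat and 0.140 to 0.224 FPKM in normal-diet libraries, and 1.13 to 3.34 FPKM in inguinal high-fat and 0 to 0.242 FPKM in normal-diet libraries (limma adjusted p = 0.0335 and 0.00379). The epididymal values lie near the 0.5 FPKM added before taking logs. That call was lost in 7 of 15 alternatives, among them the loss of any 1 epididymal library. The inguinal call was lost with only the groups compared. Gabpb2, a subunit of the GA-binding protein, fell in inguinal adipocytes, to 4.54 to 5.88 FPKM on the high-fat diet, against 6.83 to 16.3 FPKM on the normal diet (log2 difference -1.06, limma adjusted p = 0.0195). Leaving out any of 4 inguinal libraries ended this call, as did fitting only the groups compared. Ppargc1a, the coactivator best known in this role, was low throughout. It measured 0.497 to 1.86 FPKM in epididymal high-fat and 0.987 to 2.501 FPKM in epididymal normal-diet libraries, and 0.974 to 2.63 FPKM in inguinal high-fat and 1.20 to 7.59 FPKM in inguinal normal-diet libraries, and was called in neither depot (limma adjusted p = 0.528 and 0.686).

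Translation factors, tRNA synthetases and ribosomal proteins complete the list. limma called 0 of 13 mitochondrial translation factors and 0 of 20 mitochondrial aminoacyl-tRNA synthetases in either diet comparison. At an unadjusted p under 0.05 there were 0 and 3 translation factors and 1 and 1 synthetases in epididymal and inguinal adipocytes. No share of all genes is given at that threshold, here or above, so such counts were not set against a background. Another 77 genes were taken as mitochondrial ribosomal protein genes by symbol alone (Mrpl or Mrps and a number). Of these limma called 4 higher and 0 lower in epididymal adipocytes, and 7 higher and 1 lower in inguinal adipocytes. Over all genes the called shares were 12.2% higher and 7.35% lower (epididymal) and 9.3% higher and 10.2% lower (inguinal), so the counts of higher genes lay under or near the background. Mrps6, of the small subunit, measured 124, 140 and 143 FPKM in epididymal high-fat libraries, against 56.7, 67.4 and 79.4 FPKM in normal-diet libraries (log2 difference 1.00 ± 0.24, limma adjusted p = 0.0118). Its inguinal values were 139, 162 and 169 FPKM on the high-fat diet, against 38.1, 55.4 and 80.6 FPKM on the normal diet (log2 difference 1.48 ± 0.24, limma adjusted p = 0.00203). Neither depot overlapped, and both calls held in all 16 and 17 alternatives. Mrps22 was also called in both depots (log2 difference 0.84 and 1.09). The other epididymal calls were Mrpl43 (0.60) and Mrps14 (0.55), the last named after its values were seen. The epididymal calls of Mrps22, Mrpl43 and Mrps14 were lost in 4, 2 and 7 of 16 alternatives. In inguinal adipocytes Mrpl20 rose by 1.26 on the log2 scale (limma adjusted p = 0.00206). The lower call was Mrps36, whose place in the ribosome was not checked, with a fall of 1.13 on that scale (limma adjusted p = 0.00934).

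The tRNAs carry amino acids to the mitochondrial ribosome and mark where precursor transcripts are cut. None of the 22 was above 0 in 8 libraries, namely the brown high-fat library, all 6 epididymal ones and replicate 0 of the inguinal normal-diet group. In the other 6 libraries, 19 were above 0 in the brown normal-diet library, 10, 17 and 18 in inguinal high-fat replicates 0, 1 and 2, and 14 and 15 in inguinal normal-diet replicates 1 and 2. mt-Tf alone was listed at 0 in all 14. The genes are at most 75 bases long, and of 408 nuclear features of that size between 1 and 13 were above 0 per library. The split runs between libraries of one group in inguinal normal-diet adipocytes and between the brown libraries, so depot does not give the whole of it. No epididymal library listed any, so tRNA differences between epididymal and inguinal adipocytes cannot be told apart from the listing at 0, and no fold was taken against a group at 0. The fit held 14 of the 22, all of which passed the filter through inguinal libraries alone, so its tRNA results were not read.

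Where they were listed, 1 gene dominated. mt-Ts1 (6870 to 6938), a serine tRNA on the light strand directly after mt-Co1, measured 322508, 917548 and 2210000 FPKM in inguinal high-fat libraries. It measured 687467 and 6370000 FPKM in inguinal normal-diet replicates 1 and 2, and took 59.5% to 84.6% of the tRNA sum over the 6 libraries. mt-Te (14071 to 14139), a glutamate tRNA between mt-Nd6 and mt-Cytb, came second with a median of 287492 FPKM. mt-Tp, mt-Ty, mt-Ts2 and mt-Tq followed, with medians of 69262, 66781, 47093 and 41340 FPKM.

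The ranking followed the strand. Of the 6 tRNAs with the highest medians, 5 lie on the light strand, as do 7 of the highest 8, although 8 of the 22 lie there in all. Light-strand tRNAs took 88.4% to 95.9% of the tRNA sum in each of the 6 libraries. Of the 8 light-strand tRNAs, 6 were above 0 in all 6 libraries, against 3 of the 14 heavy-strand ones (mt-Tl1, mt-Ts2 and mt-Tl2). The median over genes of the median level was 54060 FPKM for light-strand and 1746 FPKM for heavy-strand tRNAs. Reads from a light-strand tRNA and from a heavy-strand precursor that runs across it cannot be told apart without strand information. mt-Ts1 also shares positions 6870 to 6872 with the end of mt-Co1.

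Many inguinal tRNA values were spaced in steps. Within a library, tRNAs of equal length were whole multiples of one step (within 0.01 of a whole number) in 9 of 14 sets of at least 3 tRNAs. No set of the brown normal-diet library, which listed the most tRNAs above 0, had such steps. In inguinal high-fat replicate 1 the step for genes of 69 bases was 4454 FPKM, at which mt-Tv and mt-Tm stood at 1 step, mt-Ta at 4, mt-Te at 32 and mt-Ts1 at 206. In inguinal high-fat replicate 2 the step was 3879 FPKM for 67 bases, 3276 FPKM for 69 bases and 2783 FPKM for 71 bases. Over all 13 sets with such steps, pairs of tRNAs included, 27 of 42 values stood at 10 steps or fewer and 9 at 1 step. The lowest value of a set could stand at up to 5 steps, which a pair meets more easily. mt-Ts1 was left out of the sets in replicate 2 of both inguinal groups and in the brown normal-diet library, where it was highest. Read counts behind these steps are not known, and tRNA values at a few steps were compared no further.

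**Figure D5:**
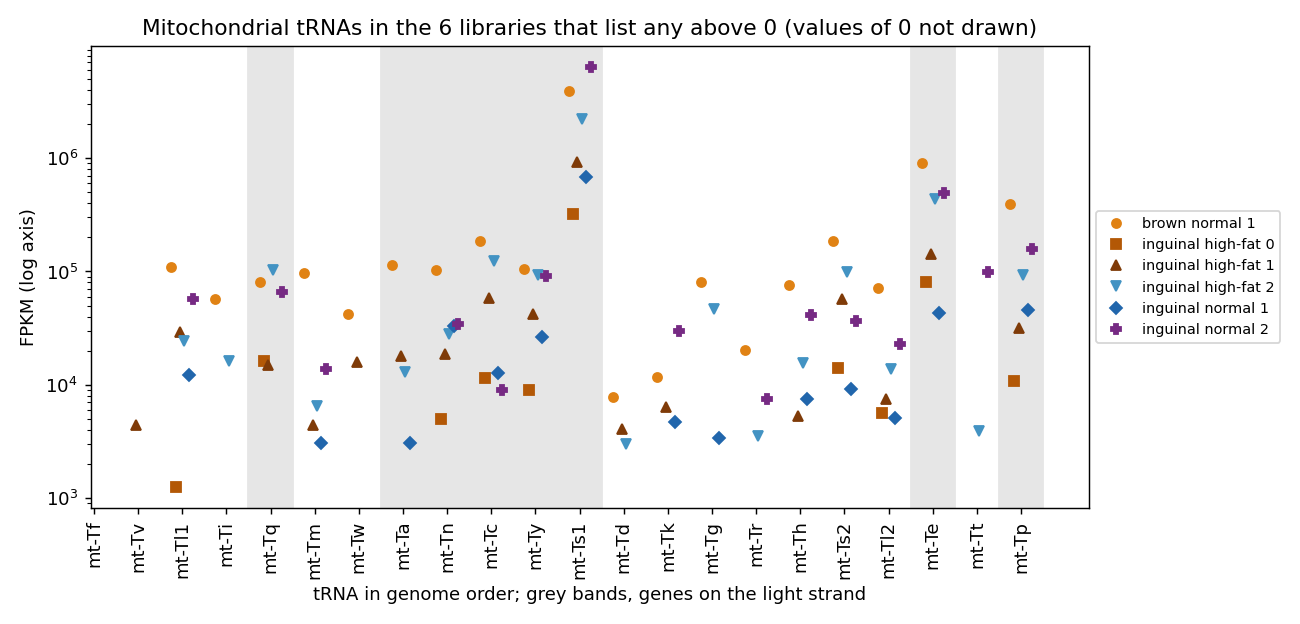
FPKM (log axis) of the 22 mitochondrial tRNAs in genome order in the 6 libraries that list any above 0; grey bands mark genes on the light strand and values of 0 are not drawn. mt-Ts1 and mt-Te stand highest, and the other high values lie mostly in grey bands.

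In brown adipocytes the 13 mRNAs made up 82.4% of protein-coding FPKM in the high-fat library and 80.6% in the normal-diet library, above every white library. On other bases the order differed. Of all features they made up 34.5% in the high-fat and 14.8% in the normal-diet brown library, and the last lies below 2 normal-diet white libraries (24.8% and 15.6%). Of features not known to be shorter than 200 bases the mRNAs made up 34.5% in the high-fat and 53.1% in the normal-diet brown library. White libraries reached up to 36.0% on that base. For 11 of the 12 mRNAs both brown libraries lay above all 12 white libraries; the exception was mt-Co1, with 130319 FPKM in the brown high-fat and 83817 FPKM in the brown normal-diet library, against 99167 FPKM in epididymal normal-diet replicate 2. With libraries scaled to their nuclear protein-coding sum, all 12 did. Brown values were 3.78 to 8.82 times the white median over these mRNAs. With 1 brown library per diet there is no replicate check.

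Both brown libraries also stood highest in rRNA, with 6704 FPKM of mt-Rnr1 and 8140 FPKM of mt-Rnr2 on the high-fat diet, and 6934 and 6768 FPKM of these on the normal diet. The highest white values were 1725 and 1518 FPKM. Between brown diets the mRNAs differed little, with 9 of 12 higher on the high-fat diet and a median log2 ratio of 0.04. mt-Co1 had a log2 ratio of 0.64 and mt-Co2 one of 0.41 (159882 FPKM on the high-fat diet and 120494 FPKM on the normal diet), while mt-Atp8 had one of -0.32 (245840 FPKM on the high-fat diet and 307084 FPKM on the normal diet). mt-Co1 took 9.38% of the pool on the high-fat diet and 6.18% on the normal diet, and mt-Nd1 took 5.66% and 5.60%.

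Nuclear subunits in brown adipocytes had positive median log2 ratios, at 0.14 for complex I, 0.46 for complex III, 0.19 for complex IV and 0.45 for complex V. Of these, 24 of 37, 9 of 9, 7 of 11 and 12 of 15 were higher in the high-fat library. mt-Cytb to Uqcrc1 was 538 on the high-fat diet and 968 on the normal diet, and mt-Atp6 to Atp5a1 was 478 and 669 in the same order. mt-Co1 to Cox4i1 was 248 on the high-fat diet and 143 on the normal diet. All stood above the white high-fat libraries, but not all above the white normal-diet ones. For mt-Cytb to Uqcrc1, replicate 2 of the epididymal and inguinal normal-diet groups (597 and 567) lay above the brown high-fat library. For mt-Co1 to Cox4i1, epididymal normal-diet replicate 2 (180) lay above the brown normal-diet library. For mt-Atp6 to Atp5a1 the highest white value was 388, below both brown libraries. Marker sums of several cell types differed between the brown libraries. Brown-adipocyte markers summed to 1613 FPKM in the high-fat and 479 FPKM in the normal-diet library, endothelial ones to 503 and 151 FPKM in the same order, and macrophage ones to 166 and 11.9 FPKM. Skeletal-muscle markers summed to 224 FPKM in the high-fat and 118 FPKM in the normal-diet library, and adipocyte markers to 22010 and 36651 FPKM in that order. Their part in the mitochondrial values was not tested.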

How the data were processed

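The authors deposited one table of FPKM values per library (14 libraries); file headers name no unit, so it was taken from the tools. Per the submitters' processing notes, TopHat2 2.0.9, Cuffdiff 2.1.1 and mm10 were used; annotation, strand setting and scaling are not given in the sources used here. FPKM times gene length of the mRNAs came to 113% and 103% of what plain FPKM allows in the brown libraries, so levels between genes are approximate. Gene positions are from RefSeq (GRCm38.p6); member sequences were not used here. Groups come from the sample titles.

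limma 3.58.1 (R 4.3.3, eBayes with trend) was fitted to log2(FPKM + 0.5) of 12 white libraries for 14959 genes with at least 0.5 FPKM in at least 3 of them, with 4 group means and Benjamini-Hochberg adjustment over all genes; a call is a two-sided adjusted p under 0.05. Ratios were tested by exact permutation in Python 3.11.15 (numpy 2.4.6, pandas 2.3.3). Both were tested on simulated data. Members, gene lists, marker lists and ratios were chosen with earlier results of these data known. Named were all mRNAs and rRNAs, the tRNAs with the 6 highest medians or above 0 in all or none of the 6 libraries that list any, up to 3 list members each way with the largest called diet differences and a mean of at least 2 FPKM, and 8 nuclear genes always; others are said to be chosen later. Of 7 nuclear copies of mitochondrial genes listed, 1 (Gm10222, mean 2.71 FPKM) is in the files, so reads shared with such copies are uncertain.

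White groups are triplicates by the series' design, and p-values measure the spread between pools of mice. Between depots on the high-fat diet, deviations of same-numbered libraries from their group means had r of 0.184, 0.111 and 0.146. The 2 diet comparisons set different mice against each other, and same-numbered r there ran from 0.00688 to 0.272. No pairing was thus read from these values, and the labels give none. A replicate block changed no mitochondrial call between depots on the high-fat diet. Alternatives were other pseudocounts and filters, quantile, TMM-type and nuclear protein-coding scaling, only the groups compared, array weights, a replicate block and each library left out.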

Additional observations from a re-analysis of the deposited data

How the results depend on the processing

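Tests of the mRNAs and rRNAs, none of which was called on the deposited scale, gave no call in 1226 results under other settings and a call in 20. In the epididymal diet comparison, array weights gave 2 mRNAs called lower (smallest limma adjusted p = 0.0302; 34.2% of all genes called) and a replicate block gave 1 (0.0463), although same-numbered libraries had r of 0.18, 0.0825 and 0.163 there and are not known to be paired. The block moved no other count of mitochondrial mRNA calls. Same-numbered r was 0.272, 0.0982 and 0.00688 for the inguinal diet comparison and 0.133, 0.0288 and 0.0761 between depots on the normal diet. Quantile normalization gave 6 mRNAs called higher between depots on the high-fat diet (10.5% of all genes called), but it sets top values by rank, and tRNAs take top ranks in inguinal libraries and are at 0 in epididymal ones, so these calls were not read. In the inguinal diet comparison, leaving out 1 library gave 0 to 4 mRNAs called lower. Without inguinal normal-diet replicates 0 and 2 (chosen after seeing the data), 1 mRNA was called higher between depots on the normal diet; that arm is 1 library, assumed to vary like the other groups, and the call was not read.

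The number of genes called was 2918 for the epididymal diet comparison (5110 with array weights, 1819 to 2323 with 1 library left out). It was 2914 for the inguinal diet (713 with only the groups compared, 4612 with array weights, 999 without normal-diet replicates 0 and 2, 1642 to 4727 with 1 left out), and 1080 for the interaction (695 without a filter, 2836 with array weights, 433 to 2627 with 1 left out). Between depots it was 1587 on the high-fat diet (2993 with only the groups compared, 3681 with array weights, 783 to 1076 with 1 left out). On the normal diet it was 974 (577 without a filter, 14 with only the groups compared, 2098 with array weights, 562 without inguinal replicates 0 and 2, 264 to 3092 with 1 left out).

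With 1 library left out, the diet difference of mt-Nd1 to Ndufs1 ran from -1.44 to -0.67, of mt-Cytb to Uqcrc1 from -2.06 to -1.37, of mt-Co1 to Cox4i1 from -2.003 to -1.29, and of mt-Atp6 to Atp5a1 from -2.02 to -1.29. All 4 passed the exact permutation test only without inguinal normal-diet replicate 1. The causes were not tested. Read depth is unknown, so no counting error could be given for any value.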
